A study of Homo sapiens with 11 samples.

Results

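Among the 55717 CUL4A islands on chromosomes 1 to 22 of U2OS cells, 22243 overlapped a replication origin and carried neither a CDT2 peak nor an H3K4me3 peak. They made up 39.9% of the islands and are called negative origin islands here. An island is a region called as enriched for CUL4A in ChIP-Seq. The islands were chosen by their measured overlap with the other U2OS lists: at least 1 bp in common with an origin, and no base in common with any CDT2 or H3K4me3 peak. Of the 55717 islands, 38872 met an origin. The CDT2 list removed 11145 of these, and the H3K4me3 list removed another 5484.

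The series has 11 samples, of which 8 have a deposited list of enriched regions and 3 are inputs without a list. The U2OS lists came from unsynchronized, untreated cultures of this human osteosarcoma line with RepID intact (WT). They comprised the CUL4A islands, the peaks of both histone marks, and replication origins mapped by nascent strands, the short newly made DNA that resists lambda exonuclease. For CDT2, the description of the series names a stable U2OS line that overexpresses full-length RepID with a FLAG tag, whereas the paper names U2OS WT cells, so the CDT2 list may come from another line than the CUL4A list. The lists from HCT116, a human colon carcinoma line, comprised SKP2 peaks of RepID WT and of RepID KO cells, and the origins of a RepID KO clone. RepID had been disrupted there by CRISPR-Cas9. There was 1 library per condition, so the spread between replicates is unknown and conditions could not be tested against each other. Islands are not replicates. The intervals given are Wilson 95% intervals, or Newcombe intervals for a difference, and they cover the error of counting islands only. Origins of HCT116 cells with RepID, and RepID binding sites, were not used here.

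CUL4A is the scaffold of CRL4, a ubiquitin ligase that binds its substrates through exchangeable receptors, the DCAFs. CDT2 is the DCAF that directs CRL4 to the licensing factor CDT1 on DNA loaded with PCNA, which helps to keep an origin from firing again in the same S phase. RepID is another DCAF, and binds chromatin itself. H3K4me3 marks active promoters and early replicating chromatin, whereas H3K9me3 marks heterochromatin, which tends to replicate late. SKP2 is the receptor of SCF, the CUL1-based ligase that also targets CDT1.

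The rule used the CUL4A, origin, CDT2 and H3K4me3 lists, so the values in this paragraph are a description. Negative origin islands ranged from 200 to 51400 bp in width, with a median of 2400 bp and quartiles of 1400 and 3800 bp. Origin islands with H3K4me3 but no CDT2 (5484 islands) and origin islands with CDT2 (11145 islands) each had a median of 2600 bp, and the 13545 islands that met neither an origin nor CDT2 had a median of 1400 bp. The negative origin islands covered 66603000 bp together. Most of them, 20462 or 92.0%, met a single origin, and 11619 or 52.2% lay wholly inside origins. At most 5 origins met the same island.

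The CUL4A list gives each island a score as a whole number. Its scale is not stated, and it can be compared only within the list. The score of negative origin islands had a median of 71, quartiles of 44 and 132, and a range from 17 to 33968. The median was 82 for origin islands with H3K4me3, 107 for those with CDT2 and 39 for islands outside origins without CDT2. Per kb of island, the median score was 33.2 for negative origin islands and 33.8 for origin islands with H3K4me3, against 42.0 for origin islands with CDT2. It was 31.0 for islands outside origins without CDT2 and 34.7 for all CUL4A islands. The negative origin islands therefore had nearly the same CUL4A score per length as those with H3K4me3, and islands outside origins without CDT2 were not far below.

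At the edge of the rule, 331 negative origin islands shared no more than 200 bp, which is a single window of the island caller, with origins. The nearest approach to a CDT2 peak was a gap of 60 bp, at the island on chromosome 5 from 33836601 to 33838600, and the nearest to an H3K4me3 peak was a gap of 24 bp, on chromosome 21 from 45077001 to 45079000. Just outside the rule, an island on chromosome 5 from 148623001 to 148625000 shared 47 bp with CDT2, and an island on chromosome 19 from 15335401 to 15339200 shared 8 bp with H3K4me3. An island on chromosome 1 from 12523001 to 12523600 abutted an origin without sharing a base. Few islands stood this close: the gap was 1 kb or less for 352 islands with regard to CDT2 and for 421 with regard to H3K4me3. The median distance was 20517 bp to the nearest CDT2 peak and 25201 bp to the nearest H3K4me3 peak.

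The rule left 4 lists unused: H3K9me3 of U2OS cells, both SKP2 lists, and the origins of HCT116 RepID KO cells. H3K9me3 was present at a minority of negative origin islands. It met 5934 of the 22243 islands, 26.7% (26.1 to 27.3%), against 33.2% of all CUL4A islands. The share was 20.9% (19.9 to 22.01%) at origin islands with H3K4me3, and 61.9% (61.0 to 62.8%) at origin islands with CDT2. Negative origin islands thus exceeded those with H3K4me3 by 5.76 percentage points (4.52 to 6.97), and the direction held on 21 of 22 chromosomes. The exception was chromosome 19, where the shares were 21.7 and 25.4%. Origin islands with CDT2 exceeded negative origin islands by 35.2 points (34.2 to 36.3) and on all 22 chromosomes.

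**Figure D1:**
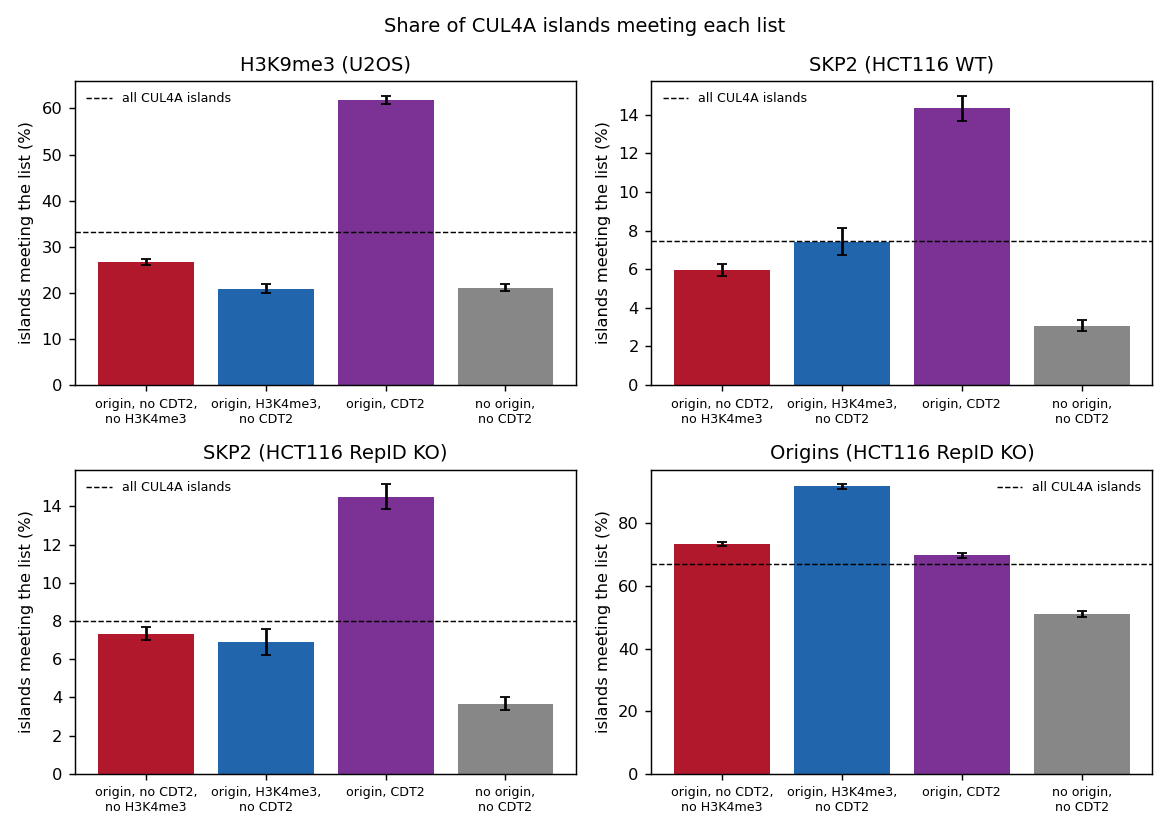
Share of CUL4A islands (%) that shared at least 1 bp with H3K9me3 peaks, with SKP2 peaks of HCT116 WT or RepID KO cells, or with HCT116 RepID KO origins, in 4 sets of islands; error bars are Wilson 95% intervals and the dashed line is the share of all CUL4A islands. Negative origin islands (red) reached 26.7% for H3K9me3, against 61.9% with CDT2, and 73.3% for HCT116 origins, against 91.8% with H3K4me3.

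A wide island meets a given list more easily than a narrow one, so the shares were also taken in 5 bins of island width. Among negative origin islands of up to 1 kb (3994 islands), 24.0% met H3K9me3, and the share was 26.0% over 2 to 4 kb (7391 islands) and 40.4% over 8 kb (970 islands). Origin islands with H3K4me3 of up to 1 kb had a share of 12.7%, so that the difference between these sets was largest among narrow islands. Above 8 kb, the shares were 40.4% (37.4 to 43.5%) for negative origin islands and 40.6% (36.0 to 45.4%) for those with H3K4me3, and the intervals overlapped. In each of the 5 bins the share was lower at negative origin islands than at origin islands with CDT2.

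**Figure D2:**
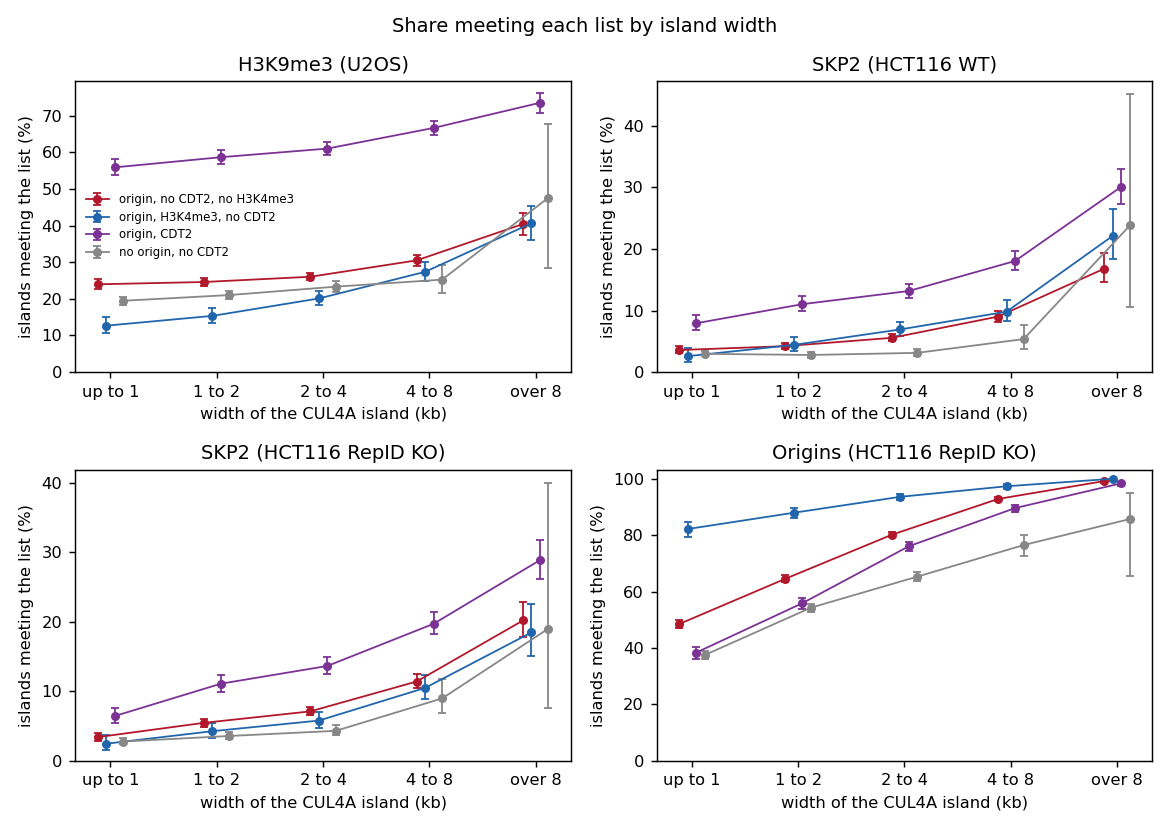
Share of islands (%) meeting each list, by width of the CUL4A island in kb, for the 4 sets; error bars are Wilson 95% intervals. For H3K9me3, negative origin islands (red) rise from 24.0% at up to 1 kb to 40.4% over 8 kb, and for HCT116 origins from 48.5 to 99.2%.

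The H3K9me3 found at negative origin islands was mostly a single narrow peak. Of the 5934 islands with the mark, 93.6% held 1 peak and none held more than 3, and the peaks covered a median of 358 bp, or 16.9% of the island. At least 50% of the island was covered in 798 cases. The other sets were alike in this. Among their islands with the mark, 93.5% held 1 peak at origin islands with H3K4me3 and 88.3% at those with CDT2. Outside origins without CDT2 it was 97.7%. The median width of all H3K9me3 peaks was 321 bp. In all, 6342 H3K9me3 peaks met negative origin islands, 11.3% of the 56182 peaks on chromosomes 1 to 22. Their median fold enrichment over the control was 3.87, as a ratio of the authors, and 69.9% had a −log10 q of at least 2. The last share was much the same at origin islands with H3K4me3, with 70.4%, and at islands outside origins without CDT2, with 70.3%. Among the 36070 H3K9me3 peaks that met no CUL4A island, 61.6% had such a q value, and among the 7849 at origin islands with CDT2, 83.0% did. The median fold went in another order, with 3.995 for peaks at no CUL4A island, above the 3.87 at negative origin islands, and 4.32 at origin islands with CDT2. Where H3K9me3 was absent, the nearest peak lay at a median distance of 11023 bp.

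Coverage by the mark was higher in the islands than in their flanks. At the centre of negative origin islands 7.84% were covered by H3K9me3, and in the outermost 1 kb of a window of 10 kb on each side 1.66% were, a ratio of 4.72. At origin islands with H3K4me3 the centre was covered in 3.95% and the outermost 1 kb in 1.49%. At origin islands with CDT2 the values were 21.1 and 1.72%, so that the flanks of the 3 sets differed less than their centres. The outermost 1 kb lies outside nearly all islands, with an upper quartile of width of 3800 bp, so the ratio sets island against flank and does not show where within an island the peaks lie.

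**Figure D3:**
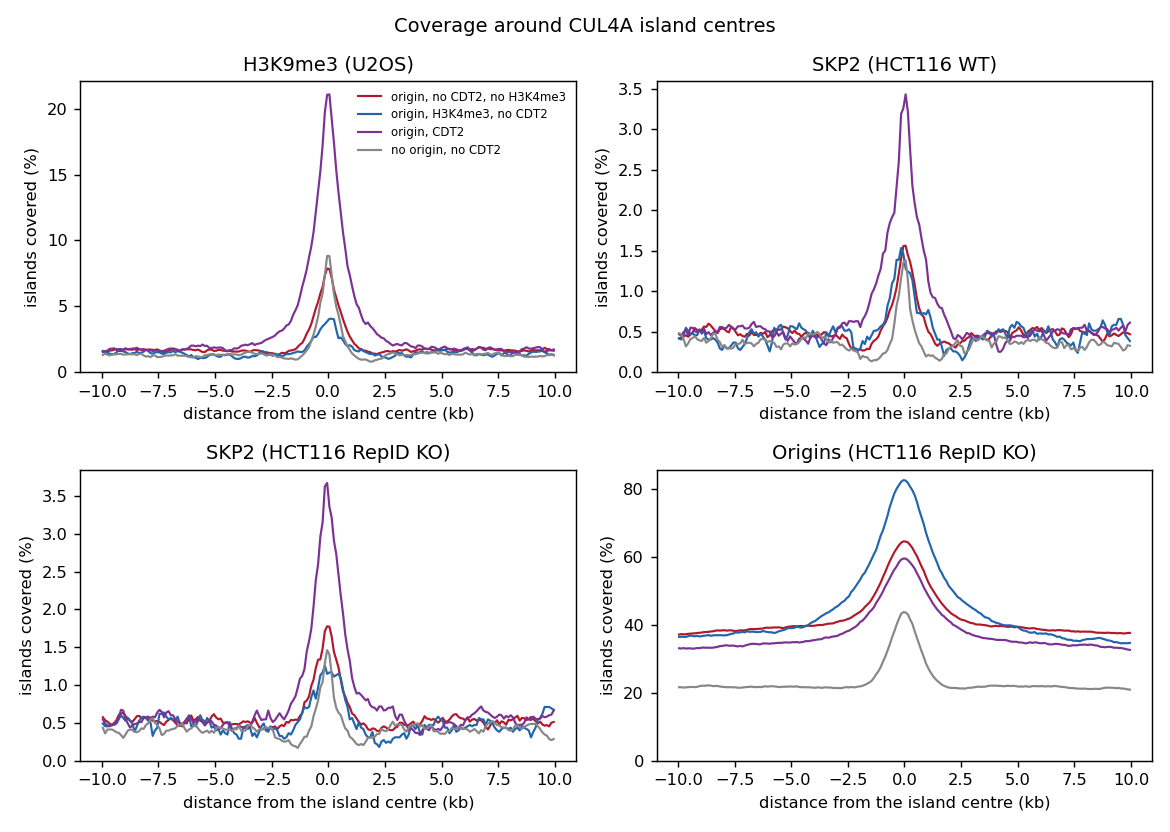
Percentage of islands covered by each list at distances up to 10 kb on each side of the island centre, in bins of 100 bp, for the 4 sets. For H3K9me3, negative origin islands (red) peak at 7.84% at the centre, above origin islands with H3K4me3 (blue, 3.95%) and below those with CDT2 (purple, 21.1%).

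Most negative origin islands also lay at an origin of the other cell line. An origin of HCT116 RepID KO cells met 16307 of them, 73.3% (72.7 to 73.9%), against 67.0% of all CUL4A islands. The share was 91.8% (91.0 to 92.5%) at origin islands with H3K4me3 and 69.8% (68.9 to 70.6%) at origin islands with CDT2. Islands with H3K4me3 thus exceeded negative origin islands by 18.5 percentage points (17.5 to 19.4), on all 22 chromosomes and in all 5 width bins. Against origin islands with CDT2, negative origin islands were higher by 3.52 points (2.50 to 4.56), in all 5 width bins but on only 15 of 22 chromosomes. The libraries differ in cell line and in RepID at once, and these cannot be told apart.

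Whether a negative origin island met an HCT116 origin went with its width. The share was 48.5% (46.9 to 50.02%) among islands of up to 1 kb, 64.5% over 1 to 2 kb, 80.1% over 2 to 4 kb, 92.8% over 4 to 8 kb and 99.2% over 8 kb. The 16307 islands with an HCT116 origin had a median width of 2800 bp, and the 5936 without had a median of 1400 bp. Their CUL4A score per kb had medians of 33.5 and 32.5, but widths differed and this measure changed with width. Its median was 53.75 at up to 1 kb and 27.7 over 2 to 4 kb. At up to 1 kb, the upper 50% by score met an HCT116 origin in 56.2%, and the lower 50% in 40.8%. The widest U2OS origin at each island had a median width of 4600 bp at islands with an HCT116 origin and 2800 bp at those without.

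H3K9me3 was more frequent at the islands that lacked an HCT116 origin. It was found at 33.2% of those without and at 24.3% of those with such an origin. Origin islands with H3K4me3 had a similar gap, with 29.6 and 20.1%, and origin islands with CDT2 a small one, with 62.6 and 61.6%. Seen from the other side, 66.8% (65.6 to 68.0%) of negative origin islands with H3K9me3 met an HCT116 origin, against 75.7% (75.02 to 76.3%) of those without the mark. The difference was present within narrow islands, where the shares were 32.8% (29.9 to 35.8%) and 53.4% (51.6 to 55.2%) at up to 1 kb, although islands with H3K9me3 had the larger median width over all bins, 2600 against 2200 bp. Over 4 to 8 kb the shares were 88.2 and 94.8%, and over 8 kb, where nearly every island met an HCT116 origin, they were 99.7 and 98.8%.

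The origins themselves were examined in the same way. A negative origin island met 21908 U2OS origins, 17.4% of the 126050 origins on chromosomes 1 to 22, and 1865 of these origins held more than 1 such island, with at most 10 in a single origin. Their median width was 3400 bp, against 2200 bp for the 88461 origins without any CUL4A island. Of the 21908 origins, 75.2% (74.6 to 75.8%) overlapped an HCT116 RepID KO origin, and of the origins without CUL4A 28.0% (27.8 to 28.3%) did. A high share was not particular to negative origin islands. It was 92.3% for origins that met an origin island with H3K4me3, and 72.1% for those that met an origin island with CDT2. Against origins without CUL4A, the order was the same at equal width. Among origins of up to 1 kb, 55.7% (53.4 to 57.9%) with a negative origin island and 18.6% (18.0 to 19.2%) without CUL4A met an HCT116 origin, and over 8 kb the shares were 93.2 and 60.4%. The origins with a negative origin island had a median score of 139, and those without CUL4A of 83. Per kb of origin, the medians were 43.0 and 40.8. The part of signal strength in the difference in overlap with HCT116 origins was not tested.

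**Figure D4:**
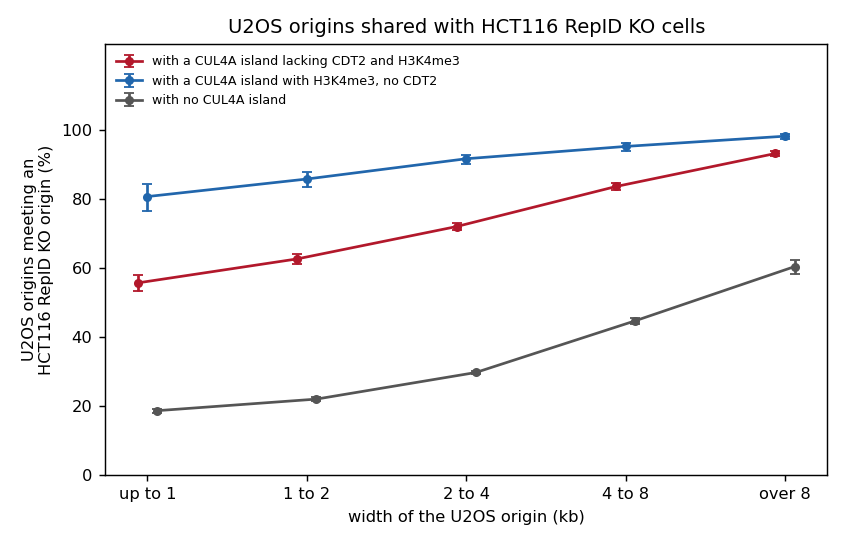
Share of U2OS origins (%) that met an origin of HCT116 RepID KO cells, by width of the U2OS origin in kb; error bars are Wilson 95% intervals. In each width bin, origins with a negative origin island (red) lie above origins with no CUL4A island (grey), from 55.7 against 18.6% at up to 1 kb to 93.2 against 60.4% over 8 kb, and below origins with an H3K4me3 island lacking CDT2 (blue).

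SKP2 peaks were infrequent at negative origin islands. SKP2 of HCT116 WT cells met 1321 islands, 5.94% (5.64 to 6.26%), against 7.45% of all CUL4A islands, and SKP2 of RepID KO cells met 1631 islands, 7.33% (6.997 to 7.68%), against 8.01%. Origin islands with CDT2 had shares of 14.3% (13.7 to 15.0%) and 14.5% (13.8 to 15.2%), each above negative origin islands on all 22 chromosomes. Islands outside origins without CDT2 had shares of 3.06 and 3.66%, each below negative origin islands on all 22 chromosomes. Against origin islands with H3K4me3, negative origin islands were lower by 1.48 points (0.746 to 2.27) for SKP2 of WT cells, on 15 of 22 chromosomes and in 4 of 5 width bins. This gap was narrower with the widths of all islands as the standard, at 5.71 against 6.27%, and with 1 kb around each centre, at 3.39 against 3.56%. For SKP2 of RepID KO cells, negative origin islands were higher by 0.458 points, with an interval from -0.318 to 1.19 that includes 0. They were higher on 15 of 22 chromosomes and in all 5 width bins, and the gap was wider when standardised to width, at 6.97 against 5.81%. With 1 SKP2 library per genotype, the larger number of islands met in RepID KO cells has no replicate check, and the RepID KO list was also the longer one, with 13518 peaks on these chromosomes against 11929.

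Of the 2704 islands with a SKP2 peak of either genotype, 1073 met SKP2 of WT cells alone, 1383 SKP2 of RepID KO cells alone, and 248 both. The 248 were 18.8% of the negative origin islands with SKP2 of WT and 15.2% of those with SKP2 of RepID KO cells. Over all CUL4A islands, 990 met both, which was 23.9 and 22.2%, so most islands with SKP2 of either genotype were met in a single list there as well. The SKP2 peaks concerned were 11.3% of the WT list and 12.5% of the RepID KO list. Their median score was 431 in WT and 442 in RepID KO cells, against 333 and 315 for SKP2 peaks at no CUL4A island, and 748 and 620 at origin islands with CDT2. At origin islands with H3K4me3 the medians were 417 in WT and 461 in RepID KO cells, and at islands outside origins without CDT2 they were 354 and 342. The SKP2 peaks at negative origin islands were thus stronger by the authors' score than those off CUL4A, and weaker than those at CDT2 islands. In this they resembled the SKP2 peaks at origin islands with H3K4me3.

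SKP2 went together with H3K9me3 within these islands, as it did in the other sets of islands. SKP2 of WT cells met 8.17% (7.50 to 8.90%) of negative origin islands with H3K9me3 and 5.13% (4.80 to 5.48%) of those without, and SKP2 of RepID KO cells met 9.71% (8.98 to 10.5%) and 6.47% (6.10 to 6.86%). Over 8 kb, the shares for SKP2 of WT cells were 21.4 and 13.7%. At up to 1 kb they were 3.66% (2.64 to 5.04%) and 3.56% (2.95 to 4.28%), and these intervals overlapped. For SKP2 of RepID KO cells the shares at up to 1 kb were 5.02% (3.80 to 6.59%) and 2.90% (2.36 to 3.56%), and these intervals did not. Most islands with SKP2 nevertheless lacked the mark: 1753 of the 2704 had no H3K9me3. At origin islands with H3K4me3, SKP2 of WT cells met 12.2% with H3K9me3 and 6.16% without. The corresponding shares were 16.1 and 11.5% at origin islands with CDT2, and 3.88 and 2.85% at islands outside origins without CDT2. For SKP2 of RepID KO cells they were 11.2 and 5.72%, 15.7 and 12.6%, and 4.68 and 3.39% in the same order.

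Taking the lists that the rule did not use together, 10883 negative origin islands, or 48.9%, met an HCT116 origin and nothing else, against 40.5% of all CUL4A islands and 65.2% of origin islands with H3K4me3. A further 3673 (16.5%) met none of these lists, against 19.1% of all CUL4A islands and 5.43% of those with H3K4me3. H3K9me3 and an HCT116 origin without SKP2 were met by 3227 (14.5%), close to the 15.7% of all and the 14.4% with H3K4me3. H3K9me3 alone was met by 1756 (7.89%), against 10.9% of all and 2.21% with H3K4me3. All 4 lists met 100 negative origin islands, 0.450%, and 0.978% of all CUL4A islands.

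The frequency of all 4 readouts changed with the CUL4A score. When negative origin islands were ranked by score into 5 groups of about 4449 islands, 46.1% met an HCT116 origin in the group with the lowest scores (17 to 40) and 95.4% in the group with the highest (155 to 33968). For H3K9me3 these shares were 22.9 and 33.9%, for SKP2 of WT cells 1.91 and 15.5%, and for SKP2 of RepID KO cells 2.70 and 16.6%. Score and width moved together, with a median width of 1000 bp in the lowest and 5600 bp in the highest group. Within islands of more than 2 and up to 4 kb, the lower and the upper 50% by score met an HCT116 origin in 70.1 and 90.2%, SKP2 of WT cells in 2.84 and 8.28%, SKP2 of RepID KO cells in 3.98 and 10.3%, and H3K9me3 in 24.4 and 27.7%. In this width bin, the upper group thus met each of the 4 lists more often than the lower group. The lower group already met an HCT116 origin in 70.1%, which limits any relative rise, so the lists cannot be ranked by relative difference.

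Negative origin islands were found on every chromosome examined, at uneven density. Chromosome 22 had 19.9 and chromosome 19 had 19.2 islands per Mb, and chromosome 13 had 2.28 and chromosome 4 had 2.88, where the largest position in any list was taken as the length. All CUL4A islands were likewise dense on chromosome 19, at 51.1 per Mb, and sparse on chromosome 13, at 6.90 per Mb. As a share of the CUL4A islands of a chromosome, negative origin islands ranged from 31.1% on chromosome 4 to 47.3% on chromosome 22. The share that met H3K9me3 ranged from 21.1% on chromosome 20 to 38.0% on chromosome 14, and the share that met an HCT116 origin from 59.0% on chromosome 4 to 84.0% on chromosome 19.

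**Figure D5:**
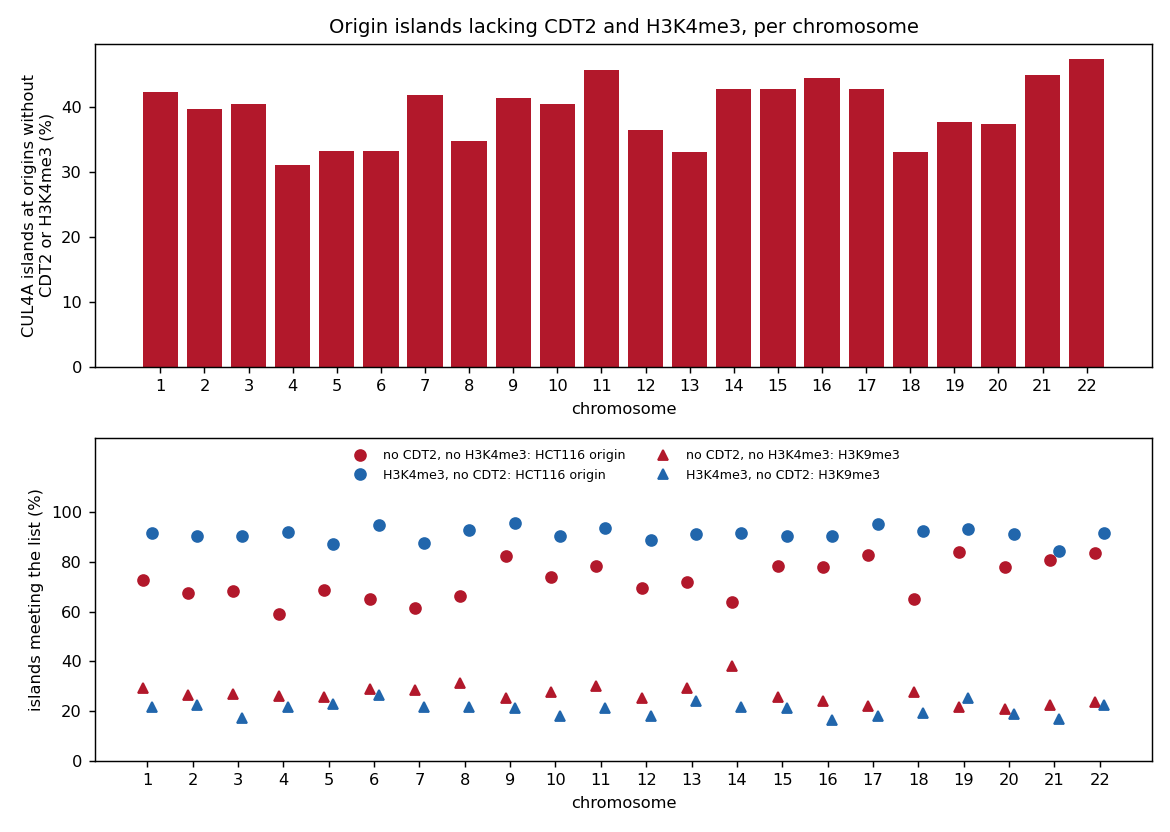
Top, share of the CUL4A islands of each chromosome (%) that were negative origin islands, from 31.1% on chromosome 4 to 47.3% on chromosome 22. Bottom, share (%) of negative origin islands (red) and of origin islands with H3K4me3 but no CDT2 (blue) that met an HCT116 RepID KO origin (circles) or H3K9me3 (triangles); the blue circle is above the red on all 22 chromosomes and the red triangle is above the blue on 21.

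Along the chromosomes, the nearest other CUL4A island was also a negative origin island in 10847 cases, or 48.8%, whereas these islands were 39.9% of all. The median gap to the nearest CUL4A island was 4000 bp. Consecutive negative origin islands, with no other CUL4A island in between, formed 11876 runs, of which 6649 were a single island and 658 held at least 5. These long runs held 4033 islands, 18.1% of the total. Runs were not counted in the other sets. The longest run held 17 islands within 193600 bp on chromosome 7 from 2682401 to 2876000. It was followed by 2 runs of 14 islands, on chromosome 11 from 60762601 to 60915000 and on chromosome 14 from 69065201 to 69230200. The neighbour was an origin island with CDT2 in 4500 cases (20.2%), and such islands were 11145 of the 55717 in the list. Of the negative origin islands, 8.62% lay within 2 Mb of a chromosome end, against 7.56% of all CUL4A islands.

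Positions below are those of the lists, in hg19 by the submitters' processing notes, counted from 1. The genes at these positions were not assigned and no sequence is shown, since no annotation or genome of this build was used here. On chromosome 1, the negative origin island from 564401 to 571200 had the highest score, 33968. All of its 6800 bp were inside a U2OS origin, it met 1 SKP2 peak of WT cells, and neither H3K9me3 nor an HCT116 origin was called there. This interval is known to resemble mitochondrial DNA in hg19, and the part of this in the score was not tested. The next score, 8120, belonged to the island on chromosome 5 from 134259001 to 134264800, which was also wholly inside an origin and met SKP2 in both genotypes and an HCT116 origin, but no H3K9me3. The scores per kb of these islands were 4995 and 1400, against a median of 33.2 for negative origin islands. The part of repeated sequence in the score was not tested for any island named here.

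The island with the third score, 7358, lay on chromosome 7 from 100633801 to 100648800, and met 3 SKP2 peaks of WT cells and 5 of RepID KO cells within 15000 bp. Nearer the end of the same chromosome, the island from 336001 to 347200 had a score of 6862 and met all 4 lists that the rule did not use. The fifth score, 6378, belonged to the widest negative origin island, on chromosome 1 from 2583001 to 2634400. Its 51400 bp met 2 U2OS origins, 2 H3K9me3 peaks, 1 SKP2 peak of WT and 5 of RepID KO cells, and 1 HCT116 origin.

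Width and score named different islands. The next widest, on chromosome 2 from 232687601 to 232715200, spanned 27600 bp with a score of 1523 and met 3 HCT116 origins and no H3K9me3. On chromosome 17, 2 islands were 26000 bp wide. The island from 21304801 to 21330800 had a score of 3455 and an H3K9me3 peak with a −log10 q of 18.7, whereas the island from 79417001 to 79443000 had a score of 772 and no H3K9me3. The island on chromosome 7 from 4961001 to 4986600 held 3 H3K9me3 peaks, with a fold enrichment of up to 3.42, but no SKP2.

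Among islands that met H3K9me3 and both SKP2 lists, the highest scores after those on chromosomes 7 and 1 were 6261 on chromosome 8 from 142952801 to 142957000, 6046 on chromosome 11 from 115015201 to 115020600, and 3932 on chromosome 14 from 69361001 to 69373800. Their H3K9me3 peaks covered 1131, 2051 and 789 bp, with −log10 q values of 7.11, 12.8 and 6.41. The fold enrichment of each was below the median of 3.87 for H3K9me3 peaks at negative origin islands, with 1.83 on chromosome 11 and 1.55 on chromosome 14. The islands on chromosomes 8 and 11 also lay far from promoter marks, with gaps of 522859 and 351213 bp to the nearest H3K4me3 peak.

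At the other extreme, 6110 of the 22243 negative origin islands lay wholly inside U2OS origins that also met an HCT116 origin, and had neither H3K9me3 nor SKP2. This count was not taken in the other sets. Lying wholly inside origins was not particular to negative origin islands, at 52.2% against 55.8% of origin islands with H3K4me3. Among the 6110, the highest score, 2105, was on chromosome 5 from 17517601 to 17530600. There the nearest H3K9me3 peak was 35813 bp and the nearest H3K4me3 peak 141769 bp away. The next, 1653, was on chromosome 7 from 2291201 to 2301800, with a gap of 4965 bp to H3K4me3, and the third, 1446, was on chromosome 2 from 91798401 to 91809400, with a gap of 4021 bp to CDT2. The distance to the excluded marks thus varied widely among strong islands of the same kind. The 3 islands named first among those with the least origin overlap, 200 bp each, lay on chromosome 1 from 2490601 to 2491000, from 4121201 to 4122600 and from 4503001 to 4504800, had scores of 24, 35 and 80, and each met an HCT116 origin.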

How the data were processed

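ChIP-Seq and nascent-strand libraries of U2OS and HCT116 cells, 1 per condition, were analysed as the 8 lists of enriched regions that the authors called and deposited; no reads were used. Per the paper's methods, CUL4A islands and origins were called by SICER with windows of 200 bp and gaps of 600 bp, at false discovery rates of 1e-05 and 0.01, and CDT2 and SKP2 peaks by MACS2 broad peaks. SICER is also named for the histone marks, but the deposited H3K4me3 and H3K9me3 lists are laid out as MACS2 broad peaks. For each peak the authors give there a fold enrichment (a ratio) and a −log10 q value. Each deposited CUL4A, origin, CDT2 and SKP2 region carries a score of the authors, used only within its list. The submitters' processing notes name hg19, MACS and SICER; aligner settings are not given in the sources used here. Library totals were not used, so the depth is unknown.

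Regions were counted as overlapping when they shared at least 1 bp. Shares were computed with Wilson 95% intervals (SciPy 1.17.1) and differences with Newcombe intervals (statsmodels 0.14.6), in Python 3.11.15 with NumPy 2.4.6 and pandas 2.3.3; figures used matplotlib 3.10.9. Overlap and distance functions were tested on simulated regions. The set of islands, the comparison sets and the alternatives were chosen with earlier results of these data known. The islands named are the 5 with the highest score, the 5 widest, the 5 with the highest score among those with H3K9me3 and both SKP2 lists, the 3 with the highest score inside shared origins without H3K9me3 or SKP2, the 3 with the least origin overlap, and those nearest the limits of the rule. Coverage around centres was sampled in bins of 100 bp within 10 kb. Sequence, GC content, promoters and genes, which the plan included, were not analysed, since no genome of this build was used here. The order of the shares was recomputed under other overlap rules, thresholds, island widths and chromosomes.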

Additional observations from a re-analysis of the deposited data

How the results depend on the processing

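With 1 library per target, the spread between libraries is unknown, and the depth of the lists, which limits what was called, is unknown. No paired analysis was possible because the labels carry no replicate numbers and each condition has 1 sample. GC content, promoters and genes were not computed under any setting. Leaving out islands within 2 Mb of a chromosome end, and leaving out the 1% of islands with the highest score per kb, were chosen after seeing the data. Under all 14 alternatives, negative origin islands met H3K9me3 and SKP2 of RepID KO cells more often, and SKP2 of WT cells and HCT116 origins less often, than origin islands with H3K4me3 (for SKP2 of RepID KO cells the interval of the difference in the report includes 0). They met H3K9me3 and both SKP2 lists less often than origin islands with CDT2 under all 14, and HCT116 origins more often under 13; the exception was the rule that at least 50% of the HCT116 origin lies in the islands. Against islands outside origins without CDT2, the H3K9me3 share was the lower one only with 1 kb around each centre.

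With the stronger 50% of CUL4A islands, 12753 were negative origin islands, with a median width of 3400 bp, a score per kb of 36.5 and 92.3% of the island in origins; 28.9% met H3K9me3, 8.55% SKP2 of WT, 10.3% SKP2 of RepID KO and 87.0% HCT116 origins, and 51.6% had a nearest island of their own kind. With 1 kb around each centre, the shares in the same order of lists were 17.1, 3.39, 4.01 and 69.8%, and with the stronger 50% of the regions of each readout 14.9, 3.53, 4.93 and 58.4%. When the stronger 50% of CDT2 peaks alone excluded an island, H3K9me3 met 30.0%, SKP2 of WT 6.27% and HCT116 origins 72.1%, the score per kb was 33.6, and 54.6% had a nearest island of their own kind. With at least 50% of the island in origins the latter was 45.1% and the score per kb 34.25. With a gap of up to 1 kb, H3K9me3 met 28.4%, SKP2 of RepID KO 7.69% and HCT116 origins 75.1%. With at least 50% of the readout region in the island, H3K9me3 met 26.1% and HCT116 origins 46.2%. Standardised to the widths of all islands, SKP2 of RepID KO met 6.97% and HCT116 origins 70.9%. Without the 2 Mb ends, H3K9me3 met 27.4% and HCT116 origins 71.5%. With no CDT2 or H3K4me3 within 2 kb, HCT116 origins met 72.3%, and without the top 1% of score per kb SKP2 of WT met 5.57%. The cause of these shifts was not tested.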
